A study of Mus musculus with 8 samples.

Results

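The tumour suppressor gene Trp53 and 9 genes that its product p53 switches on directly were followed in mouse leukaemia cells after chemotherapy. The members were given as a list of symbols (Trp53, Cdkn1a, Mdm2, Ccng1, Phlda3, Trp53inp1, Eda2r, Zmat3, Dglucy and Aen). All 10 were found among the 27179 genes of the count table through their Entrez identifiers, and all 10 passed the filter on low counts that left 13364 genes. The libraries come from acute myeloid leukaemia cells driven by the MLL-AF9 fusion, which carry green fluorescent protein (GFP) and, behind the β-actin promoter, luciferase, and were grown from the leukaemia of 1 terminally ill mouse. They were given by vein to unconditioned male recipients aged 8 to 10 weeks, and living GFP-positive cells were sorted from the bone marrow at the strongest response to treatment. Every animal had the 5+3 scheme of 5 daily doses of cytarabine (100 mg/kg), the first 3 of them joined by doxorubicin (3 mg/kg). The 5 standard-diet libraries are from mice that ate all amino acids and the 3 BCAA-free libraries from mice whose food lacked the branched-chain amino acids leucine, isoleucine and valine. The genotype label of every library is WT, which does not say whether the host or the leukaemia is meant. Leukaemia from vehicle-treated mice is not analysed here, so the values show how far the p53 programme differed between 2 diets under the same drugs and not how the drugs changed it.

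p53 is a transcription factor that is held at a low level by the ubiquitin ligase Mdm2 and is stabilised when DNA is damaged. Cytarabine blocks replication forks and doxorubicin traps topoisomerase II, and both lead to that damage signal. Stabilised p53 is controlled mainly as a protein, and its activity is commonly read from the transcripts of its targets, which arrest the cell cycle, promote cell death or repair, and feed back on p53 itself.

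p53 binds as a tetramer to pairs of a short palindromic element, the p53 consensus half-site of 10 bases, and RefSeq promoter windows of 300 bases (GRCm38.p6, 250 before to 50 after a transcript start) were searched for it. The half-site equals its own reverse complement, so 1 strand covers both. A full site was taken as 2 half-sites up to 13 bases apart with at most 2 mismatches in all and the core C and G kept, so that a full site can overlap an exact half-site. Of the 10 members, 8 had windows, 10 in all, while Trp53inp1 and Zmat3 had none. An exact half-site stood in 6 of the 10 windows, the overlapping pair of Aen windows sharing 1 site, against 8.36% of all 32851 windows. A full site stood in 2 of the 10, against 4.09% of all. In the 54 windows of 44 further p53 targets the shares were 22.2% and 14.8%.

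The 250 bases before the start are shown for the pair of members with a full site and for Dglucy, the member that passed the test, where neither element was found. Capitals mark the full site with no spacer, and each run is on the gene's strand. The Cdkn1a run lies on the plus strand at chr17:29090729-29090978, the Ccng1 run on the minus strand at chr11:40755287-40755536 and the Dglucy run on the plus strand at chr12:100778807-100779056.
Cdkn1a: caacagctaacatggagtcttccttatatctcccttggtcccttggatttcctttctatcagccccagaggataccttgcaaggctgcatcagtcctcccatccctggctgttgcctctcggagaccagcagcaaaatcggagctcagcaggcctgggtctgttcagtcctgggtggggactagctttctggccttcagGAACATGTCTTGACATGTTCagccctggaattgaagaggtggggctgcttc
Ccng1: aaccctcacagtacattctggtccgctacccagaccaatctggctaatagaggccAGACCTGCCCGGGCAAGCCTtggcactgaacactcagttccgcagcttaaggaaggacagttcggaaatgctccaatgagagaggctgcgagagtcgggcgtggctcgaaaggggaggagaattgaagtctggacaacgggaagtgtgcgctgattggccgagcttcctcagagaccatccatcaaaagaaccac
Dglucy: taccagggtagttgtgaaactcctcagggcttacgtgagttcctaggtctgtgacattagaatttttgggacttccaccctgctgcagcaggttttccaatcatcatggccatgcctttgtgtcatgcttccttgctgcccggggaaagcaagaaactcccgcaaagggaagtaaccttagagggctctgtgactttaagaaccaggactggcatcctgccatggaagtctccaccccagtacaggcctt

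The Cdkn1a site, at chr17:29090928-29090947, has 1 mismatch and ends 32 bases before the first of the gene's 2 RefSeq starts, and an exact half-site, GGACTAGCTT, lies 12 bases ahead of it, which with the exact first element of the site also makes a spaced full site with no mismatch. The window of the second Cdkn1a start held no match. The Ccng1 site, at chr11:40755462-40755481, also has 1 mismatch and begins 195 bases before the start. Single exact half-sites were GAACTTGCCT before Mdm2 (chr10:117710935-117710944), GGACTTGCCC before Trp53 (chr11:69580284-69580293) and GGGCTTGTCC at Aen (chr7:78895937-78895946), where it lies 11 bases into the gene from the first start. The windows of Phlda3 and Eda2r held no match. These matches describe letters in 1 window per start and were not tested for binding.

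Library totals ran from 14851240 to 38966911 counts. Markers of the labelled leukaemia were present throughout. Hoxa9 had a mean of 175 CPM (counts scaled to library size with TMM factors) on the standard diet and 165 CPM on the BCAA-free diet. The summed level of the 8 leukaemia markers ran from 8662 to 10992 CPM and from 6731 to 7803 CPM. That sum was lower in every BCAA-free library than in any standard one, which the Hoxa9 means do not show. Hoxa9 is a small part of the sum, which is set mainly by other genes of the list. Markers of B, T, erythroid and stromal cells were low, while the macrophage and mature neutrophil sums were above the Hoxa9 means. None of these ranges was equal between diets. The 6 B cell markers summed to between 8.22 and 16.0 CPM on the standard diet and between 25.6 and 105 CPM on the BCAA-free diet. Of the 5 tested, 3 were higher (edgeR adjusted p under the threshold of 0.05), as were 0.217% of all genes. The 6 stromal markers summed to between 2.61 and 9.49 and between 14.8 and 44.5 CPM. Of the 2 tested, 1 was called by the same test, as were 0.756% of all genes in either direction. The 7 T cell markers summed to between 5.10 and 12.5 CPM and between 7.70 and 49.9 CPM, and the 6 erythroid markers in the table to between 3.65 and 12.1 CPM and between 4.60 and 42.9 CPM. The 6 macrophage markers gave 289 to 394 CPM and 211 to 279 CPM. Mature neutrophil markers ran from 254 to 1893 CPM and from 551 to 2273 CPM, with the top values in standard replicate 3 and BCAA-free replicate 2. No marker of these lists that is in the table was at 0 in all libraries. The part of other cells in the differences below was not tested.

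Levels of the 10 genes on the standard diet spanned from abundant to nearly silent when counted per kilobase of transcript. Ccng1 stood at 85.2 ± 28.0 CPM per kilobase (SD, n = 5) and Trp53 at 73.8 ± 4.82, with overlapping libraries. Mdm2 at 33.8 ± 3.04 and Cdkn1a at 19.4 ± 8.55 CPM per kilobase came next. Their ranges overlapped only through Cdkn1a in standard replicate 3, and Mdm2 was above Cdkn1a within every standard library. Aen (12.1 ± 1.64) and Dglucy (11.3 ± 1.08) could not be told apart by their spread. Trp53inp1 (5.59 ± 2.44), Zmat3 (2.34 ± 0.664) and Phlda3 (1.86 ± 0.825) followed, the last 2 overlapping, and Eda2r, at 0.0514 ± 0.0622 CPM per kilobase, was at the edge of detection. All values below are CPM, which compare 1 gene between libraries and not genes with each other.

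Without dietary BCAA the log2 fold change was above 0 for all 10 genes and its median was 0.51, whereas over all tested genes 52.6% were positive and the median was 0.02. Only Dglucy passed the threshold. In edgeR's quasi-likelihood test 1 of 10 rose and none fell, against 0.217% of all tested genes called higher and 0.756% called in either direction. Over all genes 29 were called higher and 72 lower. These became 3 and 29 without BCAA-free replicate 2, and 78 and 56 when replicate 3 of that diet was left out. Zmat3 and Phlda3 had an unadjusted p under 0.05 besides Dglucy, and all 3 were higher, where 6.21% of all genes were higher by that measure. Values of the diets did not overlap for Dglucy and Trp53, both higher, while 4.17% of all genes were higher without overlap. Because these are bulk libraries of sorted cells, more cells with a transcript and more transcript per cell cannot be told apart. The list was drawn up with results of these libraries known, so its counts describe these genes and are no independent evidence of a direction.

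**Figure D1:**
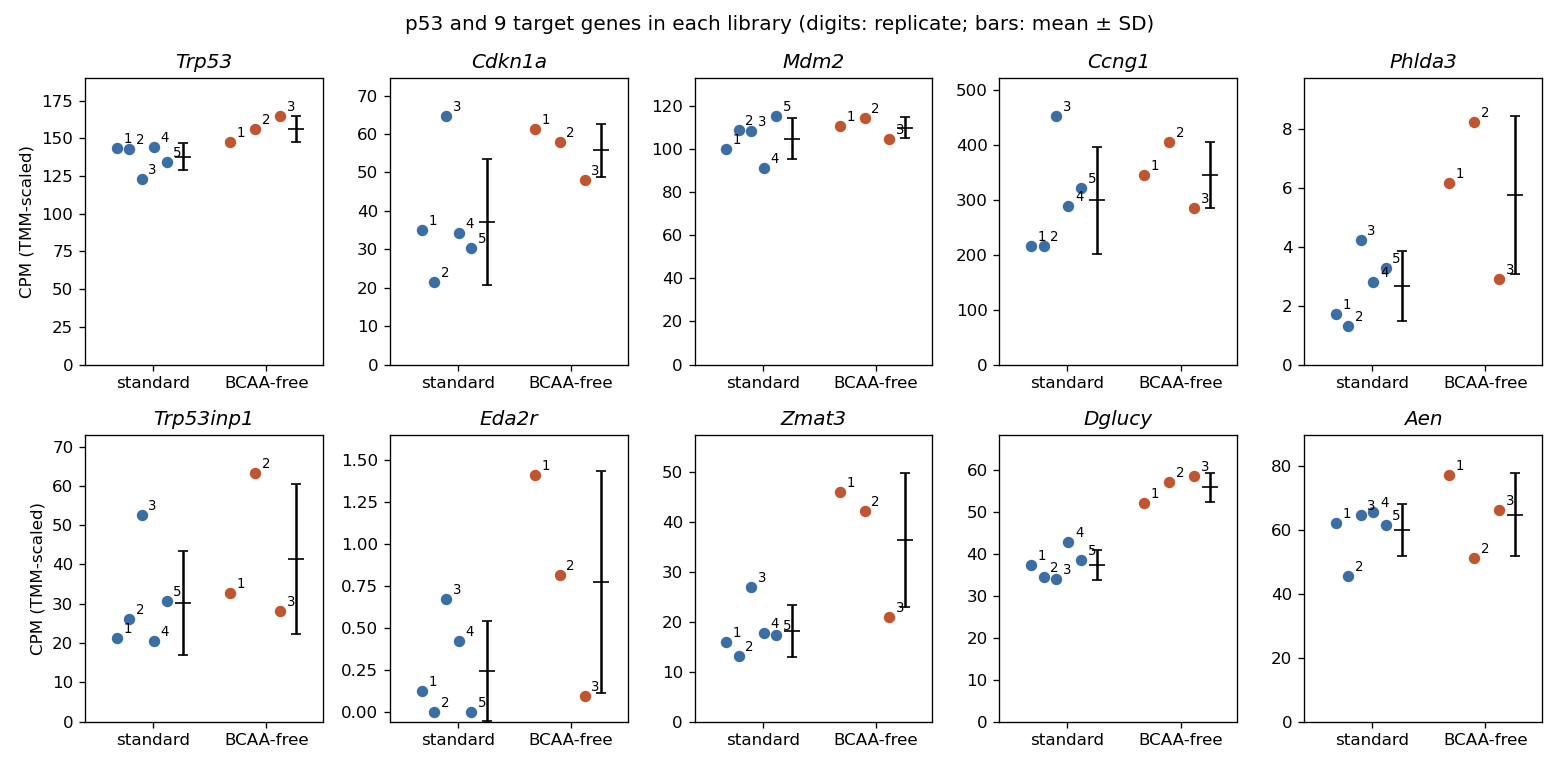
Level of each gene (y axis, CPM) in the 5 standard-diet (blue) and 3 BCAA-free (orange) libraries. Digits give the replicate, and the black bar beside each group is its mean ± SD. Dglucy and Trp53 separate the diets, while for Cdkn1a, Ccng1 and Trp53inp1 standard replicate 3 lies with or above the BCAA-free libraries.

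Trp53 itself differed little. The 5 standard-diet libraries, replicates 1 to 5, stood at 144, 143, 123, 145 and 135 CPM and the 3 BCAA-free libraries at 147, 156 and 165 CPM. Every BCAA-free library was above every standard one, the nearest being standard replicate 4 and BCAA-free replicate 1. The means were 138 ± 9.0 CPM (SD, n = 5) and 156 ± 8.78 CPM (SD, n = 3), a 1.13-fold difference (log2 fold change 0.18, SE 0.10, 95% interval -0.03 to 0.39) that did not pass in edgeR (unadjusted p = 0.0820, adjusted p = 0.441). Between 2198 and 5636 counts per library lay behind these levels. The related genes Trp63 and Trp73 did not pass the filter, and Trp73 had no count in any library.

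Mdm2, the ligase that marks p53 for destruction and is itself a p53 target, was the flattest of the targets. It stood at 99.9, 109, 108, 90.9 and 115 CPM on the standard diet and at 111, 114 and 105 CPM on the BCAA-free diet. The diets overlapped fully, since each BCAA-free value fell within the standard range. Its log2 fold change was 0.07 (SE 0.10, edgeR adjusted p = 0.822), and the 95% interval of -0.15 to 0.29 corresponds to between 0.90 and 1.22-fold. With 1 library left out the log2 fold change lay between 0.02, without standard replicate 4, and 0.11, without standard replicate 5.

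Cdkn1a, which encodes the cyclin-dependent kinase inhibitor p21 and so the arrest arm of the response, stood at 34.9, 21.4, 64.8, 34.3 and 30.4 CPM on the standard diet. The 3 BCAA-free libraries held 61.3, 57.9 and 48.0 CPM. All BCAA-free values were above 4 of the 5 standard ones, and standard replicate 3 was above all of them. That library sets most of the spread of the standard group, whose coefficient of variation was 44.0% against 12.4% on the BCAA-free diet. The difference was 1.49-fold with a 95% interval of 0.962 to 2.32-fold (log2 fold change 0.58, SE 0.29, edgeR adjusted p = 0.414). Without standard replicate 3 it was 0.88 and passed (adjusted p = 0.0236), and over the 8 fits that each leave out 1 library the adjusted p ran up to 0.610.

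Ccng1, cyclin G1, a partner of protein phosphatase 2A that acts on Mdm2, showed the same library on top. Its standard-diet values were 215, 215, 454, 289 and 322 CPM, and the BCAA-free values were 346, 405 and 285 CPM. The ranges overlapped throughout, with standard replicate 3 the highest of all 8. The log2 fold change was 0.21 (SE 0.24, 95% interval -0.32 to 0.74, edgeR adjusted p = 0.756). The log2 fold change was 0.41 without standard replicate 3, 0.33 without BCAA-free replicate 3, 0.11 without standard replicate 1 or 2 and 0.07 without BCAA-free replicate 2.

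Zmat3, an RNA-binding zinc finger protein that p53 induces, had the second smallest p of the members. The standard libraries held 16.0, 13.2, 26.9, 17.8 and 17.3 CPM and the BCAA-free libraries 46.1, 42.1 and 21 CPM. BCAA-free replicates 1 and 2 were well above every standard library, while BCAA-free replicate 3 was below standard replicate 3. The means of 18.2 ± 5.18 and 36.4 ± 13.5 CPM gave a 1.99-fold difference (95% interval 1.37 to 2.89-fold, log2 fold change 0.99, SE 0.25). It did not pass in edgeR (adjusted p = 0.0898) or limma-voom (0.185) but did in DESeq2 (0.00697), which called 2 of the 10 members higher, Zmat3 and Dglucy, and 0.963% of all genes higher. It also passed in edgeR without standard replicate 3 (0.0225) and without BCAA-free replicate 3 (0.00746), and in the other 6 such fits its adjusted p reached at most 0.304.

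Phlda3, a pleckstrin homology domain protein that competes with the kinase Akt for membrane lipids, was lowly expressed. Standard replicates stood at 1.73, 1.3, 4.25, 2.82 and 3.27 CPM and BCAA-free replicates at 6.17, 8.23 and 2.89 CPM. BCAA-free replicates 1 and 2 exceeded every standard library, and replicate 3 fell among them. The difference was 2.15-fold with a wide interval of 1.17 to 3.95-fold (log2 fold change 1.1, SE 0.42, unadjusted p = 0.0172, edgeR adjusted p = 0.266), on 23 to 152 counts per library.

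Trp53inp1, a stress protein that acts with p53 in arrest, death and autophagy, was highest in 1 library of each diet. It stood at 21.2, 26.2, 52.6, 20.4 and 30.7 CPM on the standard diet and at 32.7, 63.3 and 28.1 CPM on the BCAA-free diet. Standard replicate 3 and BCAA-free replicate 2, the pair with the highest neutrophil marker sums, were apart from the other 6. The log2 fold change of 0.45 (SE 0.37, edgeR adjusted p = 0.654) became -0.0042 without BCAA-free replicate 2. The part of neutrophils in these values was not tested.

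Eda2r, the receptor of ectodysplasin A2 and a member of the tumour necrosis factor receptor family, was barely detected. It had 5, 0, 17, 7 and 0 counts in the standard libraries and 21, 15 and 3 in the BCAA-free ones, or at most 1.41 CPM. In CPM the 2 highest libraries were BCAA-free replicates 1 and 2, and the third was standard replicate 3. At this depth a difference was not detectable, with a log2 fold change of 1.57 (SE 1.1, 95% interval -0.77 to 3.90, edgeR adjusted p = 0.568). The log2 fold change was 0.80 without BCAA-free replicate 1 and 2.12 when replicate 3 of that diet was left out, and Eda2r did not pass the filter without standard replicate 3.

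Dglucy, a mitochondrial D-glutamate cyclase (Entrez gene 217830, chromosome 12 from 100779057 to 100872610 in GRCm38), had the smallest p of the 10 genes. The standard libraries held 37.2, 34.4, 34, 42.8 and 38.4 CPM, and the BCAA-free libraries 52.0, 57.2 and 58.5 CPM. A gap separated the highest standard library, replicate 4, from the lowest BCAA-free one, replicate 1. Dglucy rose 1.5-fold (95% interval 1.25 to 1.79-fold, log2 fold change 0.58, SE 0.12), with an unadjusted p of 0.000209, rank 69 of the 13364 genes, and an edgeR adjusted p of 0.0401. Leaving out 1 library moved its log2 fold change only between 0.54 and 0.63, but its adjusted p then lay between 0.0477 and 0.153 and passed in 1 of 8 fits, that without standard replicate 4. DESeq2 (0.00164) and limma-voom (0.0341) called it over all 8 libraries. In contrast to Cdkn1a, Ccng1 and Zmat3 it was lowest of all in standard replicate 3.

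Aen, a nuclease that promotes apoptosis downstream of p53, showed no separation. Its standard values were 62.1, 45.8, 64.7, 65.7 and 61.7 CPM and its BCAA-free values 77.3, 51.1 and 66.3 CPM. The lowest library of each diet was replicate 2, and the diets overlapped. The log2 fold change was 0.11 (SE 0.15, 95% interval -0.20 to 0.42, edgeR adjusted p = 0.789), and it was -0.03 without BCAA-free replicate 1.

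**Figure D2:**
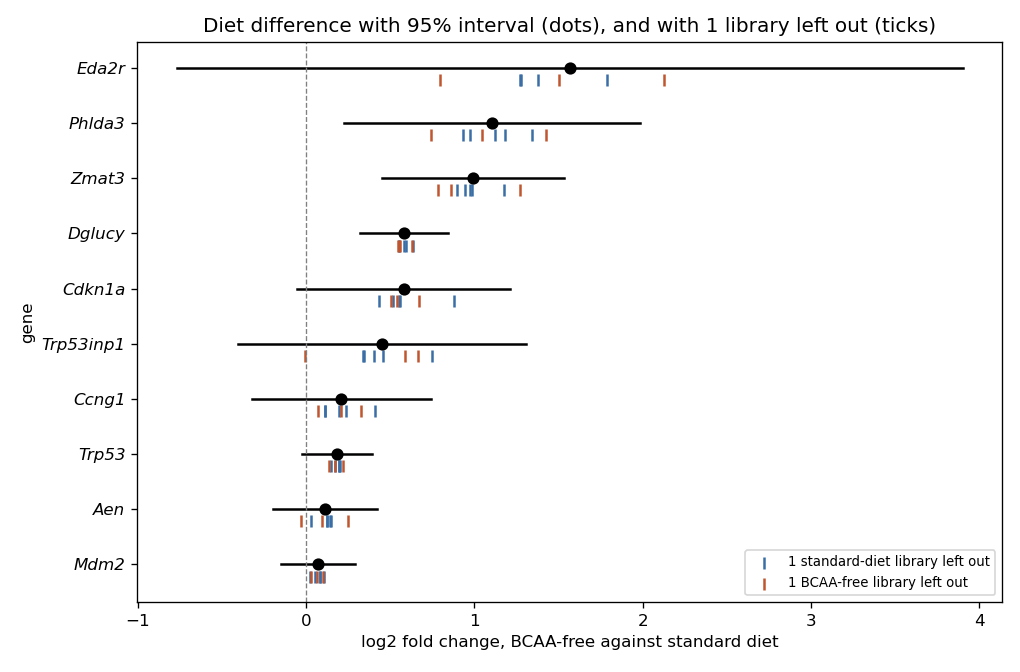
Log2 fold change of each gene, BCAA-free against standard diet (x axis), with its 95% interval from the edgeR fit (black). Ticks under each gene are the fits without 1 standard-diet (blue) or 1 BCAA-free (orange) library; those of Dglucy stay between 0.54 and 0.63, while those of Cdkn1a spread from 0.43 to 0.88.

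The 10 genes thus did not move as a block. Standard replicate 3 was the highest of its diet for 6 genes, Cdkn1a, Ccng1, Phlda3, Trp53inp1, Eda2r and Zmat3, and the lowest of its diet for Trp53 and Dglucy. Its Cdkn1a level was 2.14 times the mean of the other 4 standard libraries, Trp53inp1 2.14 times, Ccng1 1.74 times and Zmat3 1.68 times, against 0.872 times for Trp53 and 1.04 times for Mdm2. Standard replicate 2 was the lowest of all 8 libraries for 6 genes, sharing the place with replicate 5 for Eda2r. On the BCAA-free diet replicate 3 was the lowest of 3 for 7 genes and the highest for Trp53 and Dglucy. That library also had the lowest neutrophil sum of its diet, and standard replicate 2 the lowest of the other, and the bearing of this on the targets was not tested.

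**Figure D3:**
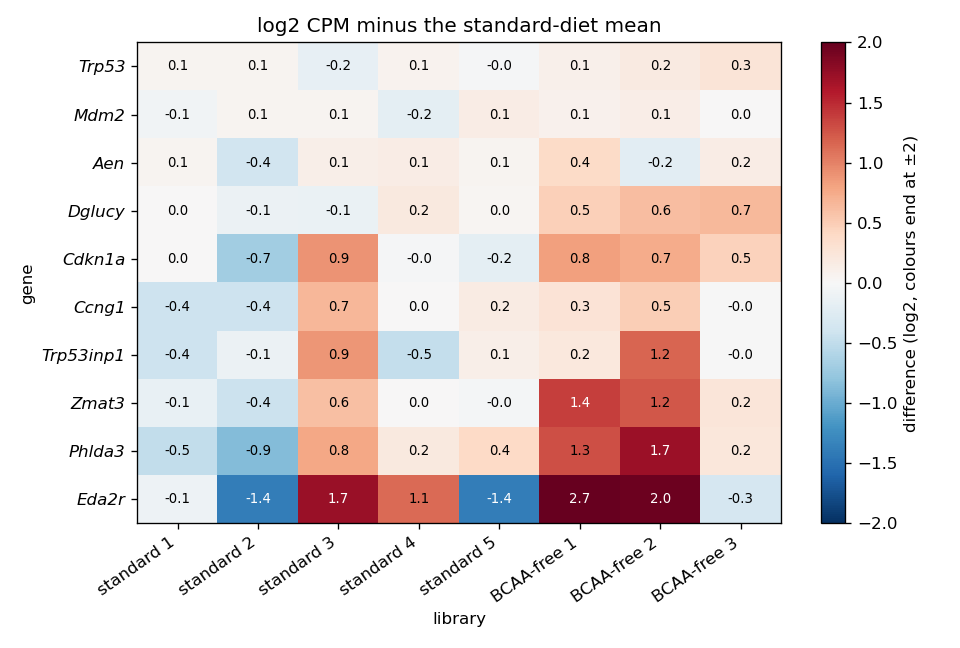
Each cell is a gene's log2 CPM (prior count 2) in 1 library minus its mean over the 5 standard-diet libraries. Cdkn1a, Ccng1, Trp53inp1, Zmat3, Phlda3 and Eda2r are red together in standard replicate 3 and BCAA-free replicates 1 and 2, while Trp53, Mdm2, Aen and Dglucy do not follow that pattern.

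To ask whether targets varied together between mice of the same diet, log2 CPM was expressed as deviation from the diet mean and related to Cdkn1a over the 8 libraries. Pearson's r was 0.78 for Zmat3 (two-sided exact permutation over 720 pairings within diets, p = 0.00833, adjusted over 9 relations p = 0.0375) and 0.78 for Eda2r (exact permutation p = 0.00556, adjusted p = 0.0375). Spearman's rho was 0.90 and 0.89 (exact permutation p = 0.0153 and 0.0111, adjusted p = 0.0688 for both). Without the 2 libraries farthest from the median of Cdkn1a, standard replicates 2 and 3, r was 0.82 and 0.93. Leaving out any single library took both adjusted p values past the threshold (0.0625 to 0.354). It also cut the pairings from 720 to 144 or 240, which raises the smallest p the permutation can give. The p values also differed between fits with the same number of pairings, so that number alone does not set them. With 144 pairings in each fit, the exact permutation p of Zmat3 was 0.00694 without standard replicate 1 and 0.0417 without standard replicate 3. For Eda2r it was 0.0139 and 0.0833. With 1 library left out r stayed between 0.67 and 0.97 for Zmat3 and between 0.73 and 0.84 for Eda2r. Without standard replicate 3, however, rho fell to 0.50 for Zmat3 and 0.72 for Eda2r. The Eda2r values rest on few counts.

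Ccng1 (r = 0.80, rho = 0.71, exact permutation p = 0.0569 and 0.0708, adjusted p = 0.102 and 0.159) and Phlda3 (r = 0.72, rho = 0.79, exact permutation p = 0.0389 and 0.0458, adjusted p = 0.102 and 0.138) did not pass. The r of Ccng1 was 0.13 without the same 2 libraries, 0.46 without standard replicate 3 alone and 0.74 without standard replicate 2 alone. It thus depends more on replicate 3 than on replicate 2. The r of Phlda3 was 0.45 without the same 2 libraries. Trp53inp1 (r = 0.58, rho = 0.43), Aen (0.52 and 0.62), Mdm2 (0.00315 and -0.10) and Dglucy (-0.22 and -0.40) had adjusted p from 0.215 to 0.999 by exact permutation for either measure. Trp53 was the one gene with a strongly negative value (r = -0.76, rho = -0.67, exact permutation p = 0.0556 and 0.114, adjusted p = 0.102 and 0.205). It was r = -0.39 without standard replicates 2 and 3, -0.80 without replicate 2 alone and -0.30 without replicate 3 alone, so this relation rests on standard replicate 3. With any other single library left out it lay between -0.81 and -0.76. The labels name no batch within which it could be repeated.

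Among all 45 pairs of the 10 genes, 27 had a positive r of these deviations and 17 were above 0.5, with a median of 0.25. The closest pairs were Ccng1 with Phlda3 (0.91), Phlda3 with Zmat3 (0.89) and Eda2r with Zmat3 (0.87). Trp53 was negative with Zmat3 (-0.83), Ccng1 (-0.82) and Phlda3 (-0.73). These pair values are descriptions over the same 8 libraries, which differ in depth and in marker sums of other cells.

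The genes outside the p53 lists whose uncentred log2 CPM ran closest to Cdkn1a over the 8 libraries were Anxa7, an annexin (r = 0.96), Glipr2 (0.94) and Srpr, the signal recognition particle receptor (0.93), among 8822 genes averaging 10 CPM or more. They were picked as the highest of many and carry no test.

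Beyond the 10 genes, 44 further p53 targets were listed by role, of which 40 passed the filter. None was called in edgeR or limma-voom, and DESeq2 called 1 higher, Bax, as it did 0.963% of all genes. An unadjusted p under 0.05 in edgeR was found for 5 of 40, 4 of them higher, a share near the 13.5% of all genes. Positive log2 fold changes numbered 29 of 40, or 72.5% against 52.6% of all genes, with a median of 0.10. Of the apoptosis targets 9 of 9 tested were positive, with a median of 0.25, and 3 had an unadjusted p under 0.05 in edgeR. Bax, the pore-forming killer of mitochondria, stood between 35 and 50.6 CPM on the standard diet and at 58.4, 49.8 and 71.5 CPM on the BCAA-free diet (log2 fold change 0.51, edgeR adjusted p = 0.118). Bbc3, the BH3-only protein Puma, stood between 2.46 and 3.57 CPM and at 4.63, 6.61 and 6.93 CPM without overlap (log2 fold change 0.97, SE 0.29, edgeR adjusted p = 0.147). Trp53i11 stood at 1.95 ± 0.731 CPM (SD, n = 5) and 4.04 ± 1.54 CPM (SD, n = 3), with an edgeR adjusted p of 0.309.

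The other roles were mixed. Of 8 tested cell cycle targets 6 were positive (median 0.09). Ckap2, a spindle protein, had a log2 fold change of -0.41 (edgeR adjusted p = 0.217), the kinase Plk3 0.87 (0.405) and Sfn, a 14-3-3 protein, 0.47 (0.548). Of 6 DNA repair and nucleotide supply targets 3 were positive (median 0.05). Xpc, which finds bulky lesions, was at -0.18 (0.443), Rrm2b, a ribonucleotide reductase subunit, at -0.32 (0.433) and the excision nuclease Ercc5 at 0.25 (0.527). Of 11 metabolic targets 7 were positive (median 0.07), among them Sesn2, a leucine-binding inhibitor of mTORC1 that ATF4 also induces (0.85, SE 0.25, edgeR adjusted p = 0.147). Abhd4 (0.44, 0.385) was higher and Steap3, a ferrireductase (-0.29, 0.405), lower without overlap. With Bbc3 this makes 2 higher and 1 lower without overlap among the 40 tested further targets. Over all genes 4.17% were higher and 4.68% lower without overlap, so these counts are near the background. Of 6 feedback and other targets 4 were positive (median 0.04), with the ubiquitin ligase Cop1 at -0.20 (0.542), Bloc1s2 at -0.31 (0.470) and Rps27l, whose counts are uncertain because of related ribosomal sequences, at 0.19 (0.579). The values in parentheses are adjusted p from edgeR after each log2 fold change.

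Genes that act on p53 were balanced. None of 17 was called in edgeR, DESeq2 or limma-voom, 2 had an unadjusted p under 0.05 in edgeR, 9 were positive and the median was 0.05, where 13.5% of all genes had such a p and 52.6% were positive. Atr, the kinase of stalled replication forks, was at -0.32 (edgeR adjusted p = 0.320), Rpl11, a ribosomal protein that inhibits Mdm2, at 0.41 (0.365) and the p53 kinase Dyrk2 at 0.35 (0.383). Counts of Rpl11 may be shared with its pseudogenes.

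The 14 cell cycle genes that p21 represses through the DREAM complex lay on the other side. Of these 12 were negative, with a median log2 fold change of -0.26, and 7 had an unadjusted p under 0.05, all lower, where 7.26% of all genes were lower by that measure. None was called in edgeR, against 0.539% of all genes called lower, or in limma-voom, and DESeq2 called Kif23 and Ect2 lower, as it did 1.85% of all genes. Kif23, a kinesin of cytokinesis, stood between 146 and 167 CPM on the standard diet and at 119, 104 and 120 CPM on the BCAA-free diet (log2 fold change -0.44, SE 0.10, edgeR adjusted p = 0.0566). Ect2, the exchange factor of the cleavage furrow, stood between 122 and 170 CPM and at 117, 102 and 100.1 CPM (-0.44, adjusted p = 0.0965). Kif23, Ect2 and Cenpe were lower without overlap, as were 4.68% of all genes. Ccnb1, cyclin B1, was at 76.6 ± 17.1 and 54.0 ± 5.02 CPM (-0.51, adjusted p = 0.169), and it was highest in standard replicate 3 at 99.1 CPM, the library with the most Cdkn1a.

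**Figure D4:**
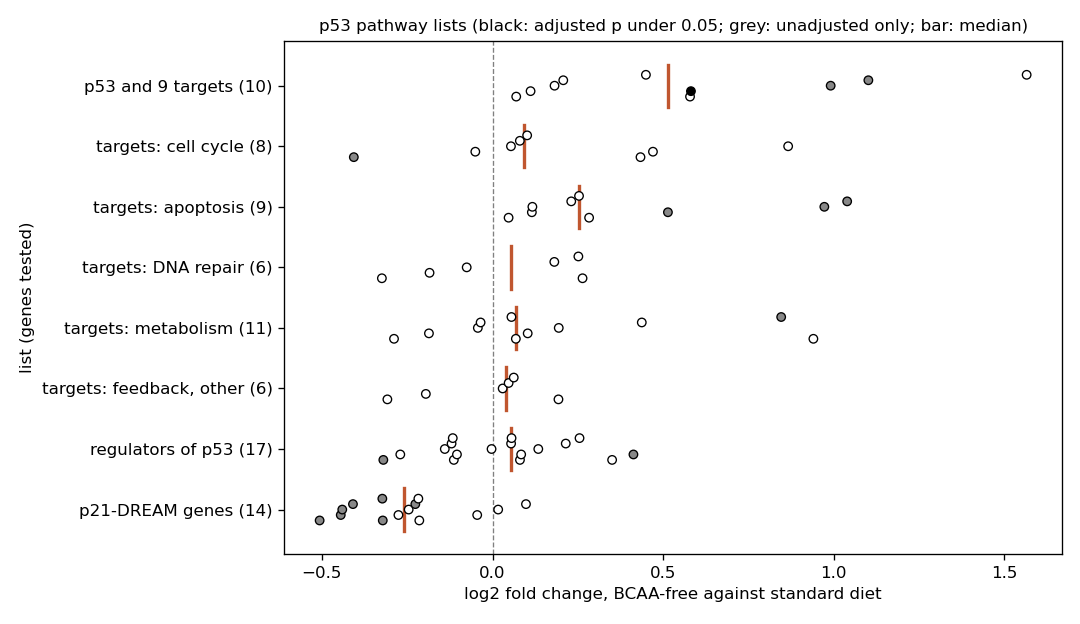
Log2 fold change, BCAA-free against standard diet (x axis), of each tested gene in 8 lists, with the number tested in parentheses. Black points passed the adjusted threshold, grey points only the unadjusted one of 0.05 and white points neither, and the orange bar is the list's median, which is highest for the 10 genes (0.51) and lowest for the p21-DREAM genes (-0.26).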

How the data were processed

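The authors deposited 1 table of raw counts per Entrez gene and library, not normalized. The genome build mm10 and the tools featureCounts and Cell Ranger are named, with no role, in the submitters' processing notes. Aligner, strandedness and handling of multi-mapping reads are not given here, and counts of overlapping, antisense or near-identical genes are uncertain. Reads were pairs of 38 bp from poly(A) RNA, per the labels' protocols. Columns were matched to samples by their description labels and groups came from titles. Titles with BCAA were taken to mean the BCAA-free food of the design text. The labels call the libraries biological replicates.

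Symbols came from the RefSeq table of GRCm38.p6, the assembly mm10 names, which matched 25275 of the 27179 identifiers. The main test was edgeR 4.0.16 (R 4.3.3), robust quasi-likelihood F test, on all 8 libraries with TMM factors, the default filter (minimum count 10, minimum total 15) and diet as the only term. P-values were Benjamini-Hochberg adjusted over 13364 genes at a threshold of 0.05. Standard errors were obtained by dividing the log2 fold change by the square root of F. The common biological coefficient of variation was 23.0%. Within a diet, pairs of libraries differed by chi-square per degree of freedom of 19.5 to 61.9, so none was a repeat. Library depth limits precision for Phlda3 and Eda2r.

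CPM per kilobase used the longest GENCODE vM21 transcript with a RefSeq accession. In 1 set of simulated counts for this comparison (13364 genes), the test recovered 16 of 67 genes altered by 1.5-fold, 42 of 67 by 2-fold and 54 of 66 by 4-fold, with 9 false among 121 calls. Alternatives were DESeq2 1.42.0, limma-voom (limma 3.58.1), RLE factors, no filter, a non-robust fit, a replicate block and leaving out each library. For the relations to Cdkn1a they were no centring, a prior count of 0.5 and leaving out each library. The rule for named genes took the 10 members, from each other p53 list the called genes and the 3 with the smallest p, and the 3 genes closest to Cdkn1a. Cenpe and the marker Hoxa9 were named after their values were seen. Members and lists were chosen with earlier results of these data known.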

Additional observations from a re-analysis of the deposited data

Results flagged for a closer look

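Of 31 named p53 pathway genes tested in the 5 standard-diet libraries, 1 had a library far from the rest. Aen was at 45.8 CPM in standard replicate 2, while the other 4 libraries lay between 61.7 and 65.7 CPM. The gap to the nearest library was 0.802 of the whole range, above Dixon's 95% critical value of 0.71 for 5 samples. Chance flags about 1 in 20 groups.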

How the results depend on the processing

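The count of called members was 1 with all libraries, 2 in DESeq2 and between 0 and 2 when 1 library was left out. It was 2 without standard replicate 3, 1 without standard replicate 4 or BCAA-free replicate 3 (Dglucy and Zmat3, respectively) and 0 without any other single library. Over all genes the count was 101 in edgeR, 382 in DESeq2, 64 in limma-voom, 237 without a filter on low counts and between 32 and 134 with 1 library left out. Of these, 3 to 78 were higher and 29 to 73 lower, and the higher ones outnumbered the lower only without BCAA-free replicate 3 (78 and 56). The wider targets had 1 call in DESeq2, and the p21-DREAM genes 2 in DESeq2 and 2 without the filter. Among single genes, the log2 fold change ran from -0.0042 to 0.75 for Trp53inp1 and from -0.0308 to 0.25 for Aen with 1 library left out. The other 8 members kept a positive sign in every alternative that gave a value, Eda2r having none without standard replicate 3, where it did not pass the filter.

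The groups share replicate numbers 1 to 3, but same-numbered libraries did not deviate together (correlations from -0.30 to -0.05, with 0 of 6 libraries closest to its own number), so the numbers were not taken as pairs. With a replicate block, 0 members and 0 genes overall were called by edgeR (899 genes had an unadjusted p under 0.05), and Dglucy had a log2 fold change of 0.67 (adjusted p = 0.335). In that fit standard replicates 4 and 5 have no BCAA-free library of the same number. The diet difference then rests on replicates 1 to 3 of each diet, so fewer calls there do not by themselves show a weaker difference.

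For the relations to Cdkn1a, without centring on diet means r was 0.0538 for Trp53, 0.52 for Dglucy, 0.80 for Ccng1 and 0.83 for Phlda3. The last 2 then passed (exact permutation adjusted p = 0.0431 for both), although the r of Ccng1 was also 0.80 with centring. Without centring the difference between diets enters r, and the permutation ran over all 40320 pairings and not over the 720 within diets. With 1 library left out r ran from 0.67 to 0.97 for Zmat3, 0.73 to 0.84 for Eda2r, -0.35 to 0.23 for Mdm2, -0.0482 to 0.70 for Trp53inp1 and -0.74 to 0.43 for Dglucy. The cause of the changes with 1 library left out was not tested.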
